A study of Homo sapiens with 18 samples.

Results

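NCOA1, NCOA2, NCOA3, CREBBP, EP300, CALCOCO1, MED1, NCOR1 and NRIP1 encode coactivators and corepressors of the glucocorticoid receptor (GR) and of other nuclear receptors, and were chosen by their symbols, without PRMT and HP1 genes, as 9 of the 60642 gene symbols counted in the RNA-sequencing libraries. The filter on low counts kept 15298 genes for testing, and all 9 were among them. The libraries came from MDA-MB-231, an established human triple-negative breast cancer (TNBC) cell line, transfected for 48 h with 25 nM of siRNA and then treated for 8 h. The siRNA was a non-specific sequence (siNS), a SMART-pool against HP1γ (siHP1γ, gene CBX3) or a SMART-pool against PRMT5 (siPRMT5). Each was combined with 100 nM dexamethasone (Dex), a synthetic glucocorticoid, or with the same volume of its vehicle ethanol (Eth), which gave 6 conditions with 3 replicates each and 18 libraries. All cells carried a transfected siRNA, so untransfected cells were not part of the comparison, and 1 pool per target in 1 cell line limits the groups as a model.

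A nuclear receptor bound to its hormone recruits coregulators in layers. The p160 coactivators SRC-1, SRC-2 (also called GRIP1) and SRC-3, encoded by NCOA1, NCOA2 and NCOA3, bind the receptor directly through LXXLL motifs and bring in the histone acetyltransferases CBP and p300, encoded by CREBBP and EP300. CALCOCO1 encodes CoCoA, a secondary coactivator that binds p160 proteins, and MED1 encodes the Mediator subunit through which many nuclear receptors contact the RNA polymerase II machinery. NCOR1 encodes a corepressor that brings in histone deacetylase complexes, and NRIP1 encodes RIP140, which binds hormone-bound receptors and mostly represses. HP1γ and PRMT5, a chromatin reader protein and an arginine methyltransferase, are themselves studied here as GR coregulators.

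Counts on genes ranged from 8682992 to 12472381 per library, and values are given as CPM (reads of a gene relative to a library total scaled by the TMM method), mean ± SD of 3 replicates. CBX3 mRNA was at 255.5 CPM in siNS Eth and 9.89 CPM in siHP1γ Eth, and PRMT5 mRNA at 249 CPM in siNS Eth and 7.41 CPM in siPRMT5 Eth. NR3C1, which encodes GR, had between 127 and 167 CPM in the 6 conditions and was higher in siPRMT5 Dex than in siNS Dex (log2 fold change 0.31, adjusted p = 0.0062 by the quasi-likelihood test of edgeR). ESR1 and PGR, which encode the estrogen and progesterone receptors, had at most 2 counts in a library, and VIM, a marker of this mesenchymal-like line, had at least 5444 CPM. Of the other markers of luminal or HER2 breast cells, CDH1 had at most 1 count in a library. The rest were detected, with ERBB2 at 24.5 to 36.0 CPM, EPCAM at 8.57 to 14.0 CPM and GATA3 at 2.68 to 7.48 CPM. Between replicates, the chi-square of the counts over genes was 2.01 to 11.3 times its degrees of freedom, which is above counting noise, and no library stood apart from its siRNA on the first principal component. Of the 9 genes, 9 had their lowest siPRMT5 Eth value in replicate 1, 8 their lowest siPRMT5 Dex value in replicate 1, and 7 their lowest siHP1γ Dex value in replicate 3.

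The stretches from 100 bases before to 30 bases after an annotated start are shown for the 3 genes in which a shared 9-base motif lies inside this stretch, and for NCOA3, the gene whose mRNA responded to Dex. Sequences are from RefSeq (GRCh38.p14), 5′ to 3′ on the strand of the gene, and capitals mark GATGGCGGC or its reverse complement, a motif of the YY1 type that was chosen after the sequences were seen. CREBBP is chr16:3880684-3880813, NCOR1 chr17:16215505-16215634 and MED1 chr17:39451234-39451363, all on the minus strand, and NCOA3 is chr20:47501787-47501916 on the plus strand.
CREBBP: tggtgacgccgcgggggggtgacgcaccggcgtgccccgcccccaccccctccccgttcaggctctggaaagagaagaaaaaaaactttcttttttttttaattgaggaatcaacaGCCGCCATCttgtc
NCOR1: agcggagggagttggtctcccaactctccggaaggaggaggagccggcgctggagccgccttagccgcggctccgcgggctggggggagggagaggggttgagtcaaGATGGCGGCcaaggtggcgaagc
MED1: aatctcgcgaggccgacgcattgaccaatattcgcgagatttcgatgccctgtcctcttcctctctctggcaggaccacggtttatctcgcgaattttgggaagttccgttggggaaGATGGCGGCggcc
NCOA3: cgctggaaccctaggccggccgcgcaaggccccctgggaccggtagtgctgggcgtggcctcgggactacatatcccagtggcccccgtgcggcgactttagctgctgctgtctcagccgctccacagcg
Windows from 250 bases before to 50 bases after a start were given for 7 of the 9 genes, which leaves NCOA2 and CALCOCO1. GATGGCGGC, searched on both strands, lay in a window of 4 of the 7, from base 17 after the start in CREBBP, 8 in NCOR1, 18 in MED1 and 37 in EP300, against 1.72% of 27305 symbols with a window. The core ACANNNTGT of the palindrome that GR binds was in none of the 7 and in 6.54% of all symbols with a window. The letters TGACGTCA (cAMP response element) and CACGTG (E-box) were also in none of the 7, against 2.25% and 8.77% of symbols. Each match is a description of the letters in these windows, and the search says nothing of distal sites.

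On the plus strand of hg38 with GENCODE 44, NCOA1 is found at chr2:24491254-24770702, NCOA3 at chr20:47501887-47656877 and EP300 at chr22:41092592-41180077. On the minus strand are NCOA2 at chr8:70109782-70403808, CREBBP at chr16:3725054-3880713 and CALCOCO1 at chr12:53708517-53727745. MED1 at chr17:39404285-39451272, NCOR1 at chr17:16029065-16218185 and NRIP1 at chr21:14961235-15065936 are also on the minus strand. The strand setting of the counting is not given in the sources used here, so reads of a gene and of an overlapping gene on the other strand cannot be told apart. Exons of NCOA3 overlap SULF2, exons of NCOR1 overlap TTC19, PIGL and other loci, exons of EP300 overlap EP300-AS1, and exons of MED1 and NRIP1 overlap long non-coding RNAs, so part of these counts is uncertain. NCOR1 also has pseudogenes among the symbols counted, which can share its reads. CALCOCO1 overlaps no other annotated gene, and NCOA1, NCOA2 and CREBBP overlap others only outside exons.

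In siNS Eth cells, the basal condition, NCOR1 was the most abundant of the 9 mRNAs per length of its canonical transcript, at 41.3 CPM per kb, and MED1 followed at 20.7 CPM per kb. NCOA2, NCOA3 and CREBBP lay close together at 11.7, 11.4 and 11.2 CPM per kb, and EP300 and NCOA1 at 9.01 and 8.90 CPM per kb. NRIP1 at 6.08 CPM per kb and CALCOCO1 at 4.21 CPM per kb were the lowest. The kind of Lexogen kit is not named in the sources used here, and with a kit that reads only transcript ends the levels per length would not be comparable. Across the 6 condition means, CALCOCO1 spanned 2.63-fold and NCOA3 2.43-fold, whereas CREBBP, EP300 and NCOA1 spanned 1.62-, 1.60- and 1.55-fold. NCOA2, NRIP1 and MED1 spanned 1.42-, 1.41- and 1.41-fold, and NCOR1 spanned 1.25-fold. The lowest mean was that of siNS Eth for 7 of the genes, and the exceptions were CALCOCO1, lowest in siPRMT5 Dex, and NRIP1, lowest in siNS Dex.

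**Figure D1:**
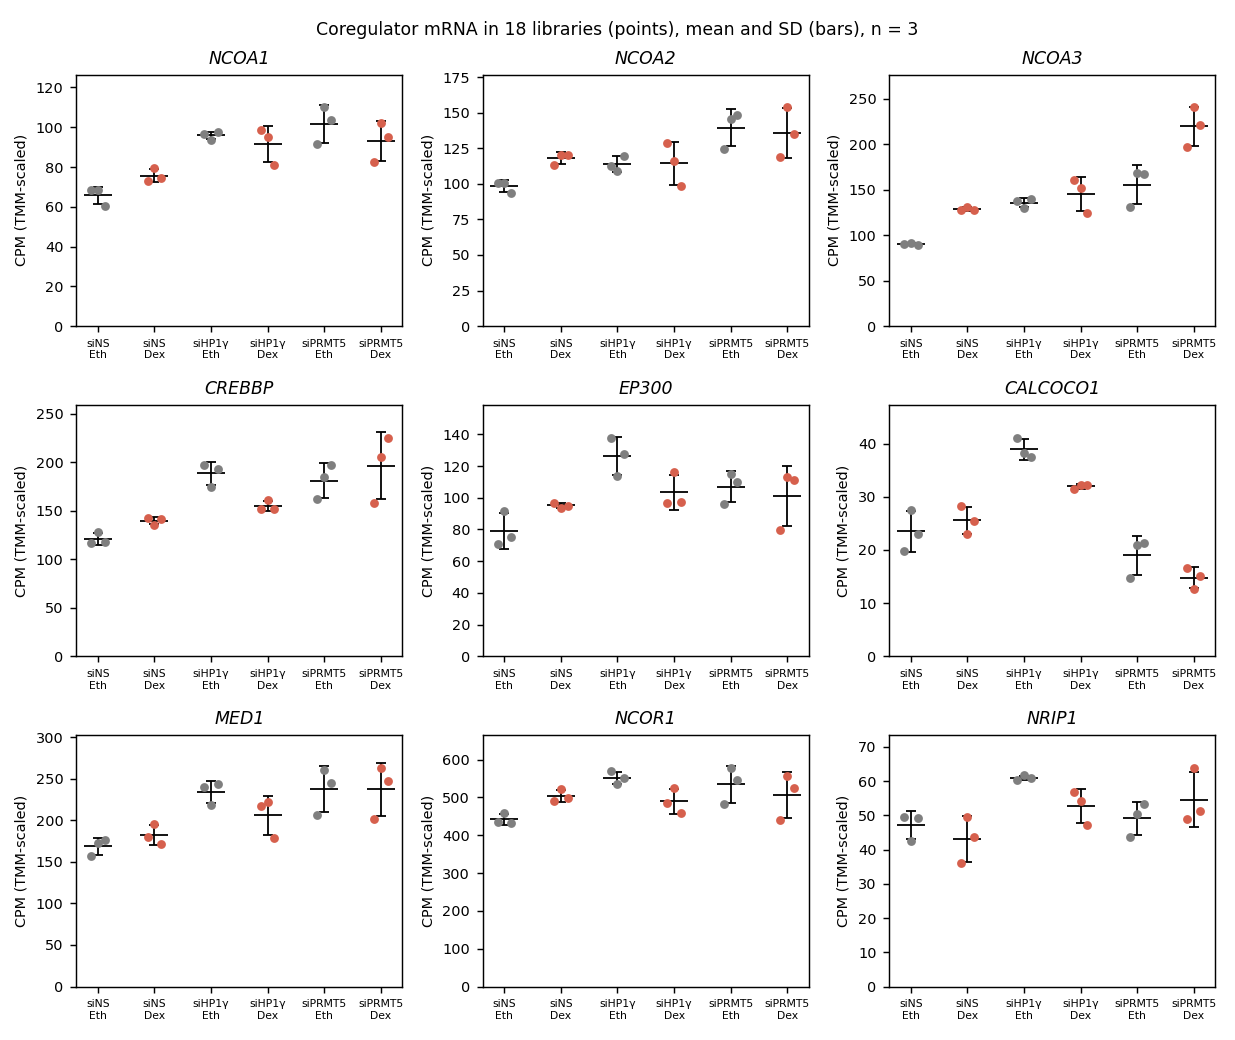
Normalised counts of the 9 coregulator mRNAs (vertical axis, CPM from 0) in the 6 conditions (horizontal axis), with the 3 libraries of a condition as points (gray Eth, red Dex) and the mean and SD as bars. The means of NCOA3 span from 90.4 CPM in siNS Eth to 219.6 CPM in siPRMT5 Dex, and those of CALCOCO1 from 14.8 CPM in siPRMT5 Dex to 38.9 CPM in siHP1γ Eth.

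Depletion of HP1γ without Dex came with higher mRNA of nearly all of these coregulators. Of the 9, 8 were higher in siHP1γ Eth than in siNS Eth (adjusted p under 0.05) and none was lower, whereas 31.8% of all genes tested were called in either direction and 16.5% were called higher. The median log2 fold change of the 9 was 0.55, against 0.01 over all genes tested. Coactivators and corepressors were both among the 8, and NCOA2 was the exception. For each of the 9, the 3 siHP1γ libraries lay above the 3 siNS libraries. Here and below, the share of all genes tested that separate in this way was not counted, so separation is only a description. With 3 libraries against 3, an exact two-sided permutation test cannot go below p = 0.1. In RNA of whole cultures, a change in each cell and a change in the share of cells that express a gene cannot be told apart.

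Among the p160 coactivators, NCOA1 had 68.2, 68.3 and 60.6 CPM in the siNS Eth libraries and 96.4, 93.8 and 97.5 CPM in the siHP1γ Eth libraries. NCOA3 had 89.9, 91.8 and 89.6 CPM in siNS Eth and 137, 129.9 and 140.1 CPM in siHP1γ Eth. The increase was 1.46-fold for NCOA1 (log2 fold change 0.55 with a standard error, SE, of 0.0892, adjusted p = 4.03e-05) and somewhat larger for NCOA3 (log2 fold change 0.59 with SE 0.0949, adjusted p = 3.6e-05). NCOA2, which encodes the p160 protein that can also act as a GR corepressor, had 101, 101 and 93.5 CPM in siNS Eth and 112, 109 and 119.8 CPM in siHP1γ Eth. Its libraries did not overlap, but its log2 fold change of 0.21 did not pass the test (adjusted p = 0.0938), and its 95% confidence interval reached from 0.02 to 0.40.

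The acetyltransferase genes were among the most increased. CREBBP had 117, 128 and 118 CPM in siNS Eth and 198, 175 and 193 CPM in siHP1γ Eth, a 1.55-fold increase (log2 fold change 0.64 with SE 0.0944, adjusted p = 1.19e-05). EP300, which encodes the paralog p300, had 70.5, 91.7 and 75.0 CPM in siNS Eth and 138, 114 and 128 CPM in siHP1γ Eth. It rose 1.60-fold (log2 fold change 0.68 with SE 0.114, adjusted p = 5.85e-05), and its siNS Eth replicate 2 was the nearest to the depleted libraries. The secondary coactivator gene CALCOCO1 had 19.9, 27.5 and 23.1 CPM in siNS Eth and 41.1, 38.2 and 37.5 CPM in siHP1γ Eth. This was the largest of the 9 changes, at 1.65-fold (log2 fold change 0.72 with SE 0.121, adjusted p = 5.4e-05). MED1 had 157, 172 and 176 CPM in siNS Eth and 240.5, 219 and 244 CPM in siHP1γ Eth, a 1.39-fold increase (log2 fold change 0.47, adjusted p = 0.000552).

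The corepressor genes NCOR1 and NRIP1 changed less than the coactivator genes other than NCOA2, which changed least (log2 fold change 0.21). A difference between coactivators and corepressors was not tested. NCOR1 had 435, 459 and 432 CPM in siNS Eth and 569, 536 and 551 CPM in siHP1γ Eth, a 1.25-fold increase (log2 fold change 0.32 with SE 0.078, adjusted p = 0.00254). NRIP1 had 49.6, 42.5 and 49.3 CPM in siNS Eth and 60.4, 61.6 and 60.9 CPM in siHP1γ Eth, a 1.29-fold increase (log2 fold change 0.37 with SE 0.111, adjusted p = 0.0115). The NRIP1 call was lost without siNS Eth replicate 2, its lowest library, with an adjusted p of 0.0700. When libraries were scaled by their totals alone, without TMM, all 9 genes were called higher, and the share of higher genes among all calls moved from 52.1% to 63.8%.

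These 9 mRNAs are long, and long mRNAs were on the whole slightly higher after this depletion. Their canonical transcripts hold between 5576 and 10790 bases, against a median of 3076 over the tested genes with a canonical transcript (88.6% of those tested), and 7 of the 9 lie in the longest 10%. The median log2 fold change of that 10% in siHP1γ Eth against siNS Eth was 0.11, and 28.7% of its genes were called higher. When each library was corrected for transcript length, an alternative added after the data were seen, 8 of the 9 genes were still called higher, at a median log2 fold change of 0.49. The summed level of VIM, CD44, AXL, SPARC and KRT18, markers of the line, was 10203 to 10814 CPM in siNS Eth and 8320 to 9040 CPM in siHP1γ Eth. Over all libraries VIM had 5444 to 9592 CPM and SPARC only 5.81 to 10.7 CPM, so VIM weighs most in this sum. The summed level of PTPRC, PECAM1 and COL1A1, markers of leukocytes, endothelium and fibroblasts, was 4.25 to 4.89 CPM in siNS Eth and 9.46 to 10.4 CPM in siHP1γ Eth. PTPRC had at most 2 counts in a library, so PECAM1 and COL1A1, at up to 8.15 and 15.1 CPM over all libraries, make up nearly all of this sum. Whether other cells were present was not tested. The part of these markers in the coregulator changes was not tested.

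With Dex, 1 of the 9 genes, NCOA1, differed between siHP1γ and siNS cells, against 24.0% of all genes tested, or 11.7% called higher. The median log2 fold change of the 9 was 0.18. For 4 of them all siHP1γ Dex libraries lay above all siNS Dex libraries, with no count over all genes to set beside this. NCOA1 had 73.2, 79.3 and 74.6 CPM in siNS Dex and 98.6, 95.1 and 81.1 CPM in siHP1γ Dex, so the groups did not overlap but replicate 3 was close. Its 1.21-fold difference (log2 fold change 0.28 with SE 0.0879, adjusted p = 0.0229) was lost when siNS Dex replicate 1 or 3, or siHP1γ Dex replicate 1 or 2, was left out, with adjusted p-values of up to 0.0979. NRIP1 and CALCOCO1 were just outside the threshold, at log2 fold changes of 0.30 and 0.32 (adjusted p = 0.0536 and 0.0575). CALCOCO1 had 28.3, 23.1 and 25.4 CPM in siNS Dex and 31.4, 32.3 and 32.2 CPM in siHP1γ Dex, which did not overlap. The other 6 genes had log2 fold changes between -0.04 and 0.18 and adjusted p-values of at least 0.168.

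The call count with Dex depended on the scaling. With library size only, 5 of the 9 genes were called higher (NCOA1, NCOA3, CALCOCO1, MED1 and NRIP1), while the median of all genes moved to 0.0864 and the share of higher genes among all calls moved from 48.7% to 69.2%. Relative to that shift, the median of the 9 genes, then at 0.26, lay at about the distance it had with TMM.

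Depletion of PRMT5 without Dex also came with higher coregulator mRNA. Both depletions are compared with the same siNS Eth libraries, which held the lowest mean for most of the genes, so they are not independent observations. The Dex response in siNS cells, given below, rests on these libraries too. In siPRMT5 Eth against siNS Eth, 7 of the 9 genes were higher and none was lower, whereas 42.1% of all genes tested were called and 20.6% were called higher. The 7 were the p160 genes, both acetyltransferase genes, MED1 and NCOR1, and their libraries did not overlap those of siNS Eth. CALCOCO1 and NRIP1 did not pass. The median log2 fold change of the 9 was 0.49, against 0.00 over all genes.

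NCOA3 was the most changed, with 131, 168 and 167 CPM in siPRMT5 Eth against 89.9 to 91.8 CPM in siNS Eth. This was a 1.72-fold increase (log2 fold change 0.78 with SE 0.0949, adjusted p = 2.7e-07), and replicate 1 was the lowest depleted library. NCOA1 had 91.3, 110.0 and 103 CPM, a 1.55-fold increase (log2 fold change 0.63 with SE 0.0895, adjusted p = 2.95e-06). NCOA2 had 124, 145 and 148 CPM, a 1.42-fold increase (log2 fold change 0.50 with SE 0.0944, adjusted p = 0.000108). All members of the p160 family were thus higher in siPRMT5 Eth, including NCOA2.

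CREBBP had 162, 185 and 197 CPM in siPRMT5 Eth and rose 1.49-fold (log2 fold change 0.58 with SE 0.0948, adjusted p = 1.96e-05). EP300 had 96.1, 115 and 110.1 CPM and rose 1.35-fold (log2 fold change 0.44 with SE 0.115, adjusted p = 0.00337). MED1 had 206, 260.4 and 245 CPM and rose 1.41-fold (log2 fold change 0.49 with SE 0.0983, adjusted p = 0.000222). In each case all depleted libraries were above the siNS Eth libraries, and replicate 1 was the nearest to them.

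NCOR1 had 483, 579 and 545 CPM in siPRMT5 Eth, a 1.21-fold increase (log2 fold change 0.28 with SE 0.0781, adjusted p = 0.0056). In the longest 10% of transcripts the median log2 fold change was 0.12 and 34.0% of genes were called higher, and with the correction for length the NCOR1 call was lost (log2 fold change 0.12, adjusted p = 0.0983). With that correction, CALCOCO1 was called lower and 6 of the 9 genes higher, at a median of 0.37. NRIP1 had 43.7, 50.4 and 53.2 CPM, which overlapped siNS Eth, and a log2 fold change of 0.06 (adjusted p = 0.707, 95% confidence interval -0.17 to 0.29). CALCOCO1 had 14.8, 20.9 and 21.4 CPM against 19.9, 27.5 and 23.1 CPM, which overlapped, and a log2 fold change of -0.31 that did not pass (adjusted p = 0.0641).

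With Dex, PRMT5 depletion came with 5 higher genes and 1 lower gene among the 9, against 42.4% of all genes called, 20.6% higher and 21.9% lower. NCOA3, CREBBP, MED1, NCOA1 and NRIP1 were higher in siPRMT5 Dex than in siNS Dex, and CALCOCO1 was lower. NCOA2, EP300 and NCOR1 did not pass. The median log2 fold change of the 9 was 0.30. In the longest 10% of transcripts, 30.1% of genes were called higher and 19.5% lower. With the correction for transcript length, the same 6 genes were called and the median of the 9 was 0.23.

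NCOA3 had 127, 131 and 128 CPM in siNS Dex and 197, 241 and 221 CPM in siPRMT5 Dex, a 1.71-fold increase (log2 fold change 0.77 with SE 0.0923, adjusted p = 2.17e-07). The siPRMT5 Dex libraries held its highest 3 values of all 18 libraries. CALCOCO1 had 28.3, 23.1 and 25.4 CPM in siNS Dex and 16.6, 12.7 and 15.1 CPM in siPRMT5 Dex. Its groups did not overlap, and its level was 0.574 of that in siNS Dex (log2 fold change -0.80 with SE 0.132, adjusted p = 2.23e-05). CALCOCO1 had 133 to 170 counts in the siPRMT5 Dex libraries, the fewest of the 9 genes, so its values have the largest counting error.

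CREBBP had 143, 136 and 141 CPM in siNS Dex and 158, 206 and 226 CPM in siPRMT5 Dex, with the widest spread among replicates of any condition of this gene (log2 fold change 0.49 with SE 0.0935, adjusted p = 0.000143). MED1 had 181, 196 and 171 CPM in siNS Dex and 201, 263 and 247 CPM in siPRMT5 Dex (log2 fold change 0.38 with SE 0.0976, adjusted p = 0.00266). NCOA1 had 82.3, 102 and 95.1 CPM in siPRMT5 Dex, above the 73.2 to 79.3 CPM of siNS Dex (log2 fold change 0.30 with SE 0.0881, adjusted p = 0.00747). The NCOA1 call was lost without siPRMT5 Dex replicate 2 (adjusted p = 0.0581). NRIP1 had 36.1, 49.6 and 43.8 CPM in siNS Dex and 48.8, 63.9 and 51.2 CPM in siPRMT5 Dex. These overlapped, its log2 fold change was 0.35 (standard error 0.111, adjusted p = 0.0135), and the call was lost without siNS Dex replicate 1 or siPRMT5 Dex replicate 2, with adjusted p-values of up to 0.137.

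For EP300, 79.5, 113 and 111 CPM in siPRMT5 Dex stood against 96.8, 93.8 and 95.0 CPM in siNS Dex (log2 fold change 0.09, adjusted p = 0.567, 95% confidence interval -0.14 to 0.32). For NCOR1, 439.8, 556 and 525 CPM stood against 489, 522 and 499.9 CPM (log2 fold change 0.01, adjusted p = 0.933, 95% confidence interval -0.15 to 0.17). NCOA2 was at a log2 fold change of 0.21 (adjusted p = 0.0768). In all of these, siPRMT5 Dex replicate 1 was the lowest depleted library. Of the markers of other cell types, PTPRC had at most 2 counts in a library, and the summed level of PTPRC, PECAM1 and COL1A1 was 16.1 to 17.9 CPM in siPRMT5 Eth against 4.25 to 4.89 CPM in siNS Eth. With Dex it was 16.5 to 21.2 CPM in siPRMT5, 8.27 to 11.7 CPM in siHP1γ and 8.28 to 9.79 CPM in siNS cells, and its part in the coregulator changes was not tested.

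**Figure D2:**
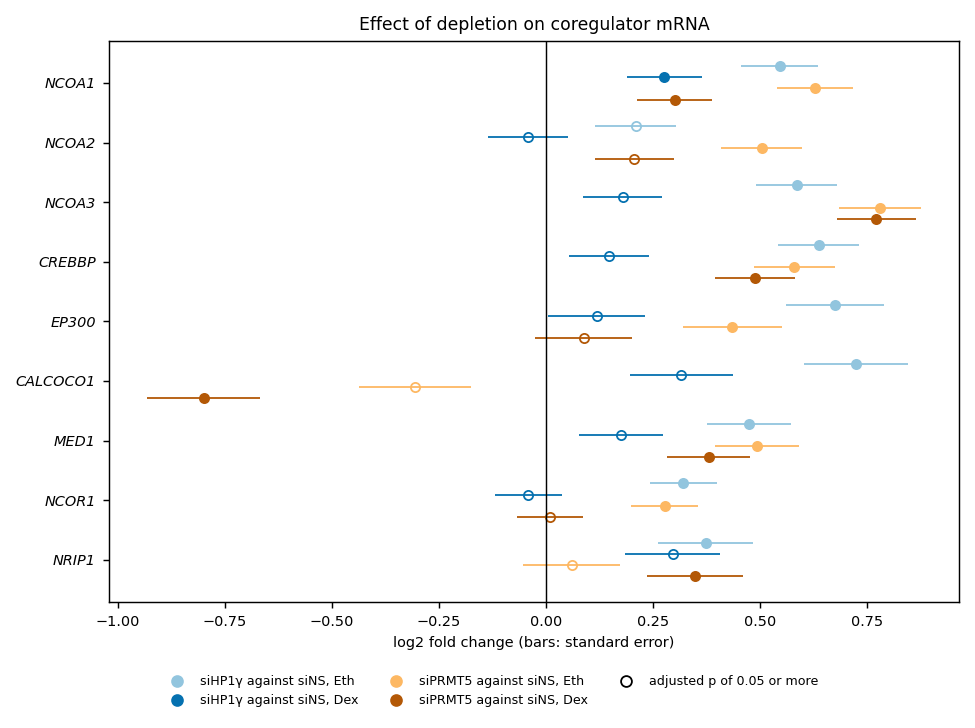
Log2 fold change of each coregulator mRNA after depletion (horizontal axis, bars are standard errors) for siHP1γ (blue) and siPRMT5 (orange) against siNS, without Dex (pale) and with Dex (dark), with open points for an adjusted p of 0.05 or more. CALCOCO1 is the only one of the 9 with a called decrease, at -0.80 in siPRMT5 Dex, and NCOA3 has the largest increases, at 0.78 and 0.77 in siPRMT5 cells.

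The direct comparison of siPRMT5 with siHP1γ cells asks where the coregulator mRNAs differ between the depletions. CALCOCO1 differed most. It had 37.5 to 41.1 CPM in siHP1γ Eth and 14.8 to 21.4 CPM in siPRMT5 Eth, at 0.490 of the siHP1γ level (log2 fold change -1.03 with SE 0.125, adjusted p = 1.95e-07). With Dex, it had 31.4 to 32.3 CPM in siHP1γ and 12.7 to 16.6 CPM in siPRMT5 cells, at 0.462 of the siHP1γ level (log2 fold change -1.12 with SE 0.129, adjusted p = 7.89e-08). The libraries did not overlap in either.

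With Dex, 4 of the 9 genes differed between the depletions, against 49.9% of all genes, and besides CALCOCO1 these were NCOA3, CREBBP and NCOA2, all higher in siPRMT5 cells. NCOA3 had 161, 152 and 125 CPM in siHP1γ Dex, below the 197 to 241 CPM of siPRMT5 Dex (log2 fold change 0.59 with SE 0.0916, adjusted p = 7.01e-06). CREBBP had 152, 161 and 152 CPM in siHP1γ Dex, which overlapped siPRMT5 Dex (log2 fold change 0.34, adjusted p = 0.00367). NCOA2 had 129, 116 and 98.3 CPM in siHP1γ Dex and 119, 154 and 135 CPM in siPRMT5 Dex, and its log2 fold change of 0.25 (adjusted p = 0.0291) did not pass without siPRMT5 Dex replicate 2 or siHP1γ Dex replicate 3. Without Dex, 3 of the 9 differed, against 48.4% of all genes. Besides CALCOCO1 these were NCOA2, higher in siPRMT5 Eth (log2 fold change 0.29, adjusted p = 0.0115), and NRIP1, lower in siPRMT5 Eth (log2 fold change -0.31, adjusted p = 0.0217). The NCOA2 call was lost without siHP1γ Eth replicate 2 or siPRMT5 Eth replicate 3 (adjusted p of up to 0.0531), and the NRIP1 call without siPRMT5 Eth replicate 1 or siHP1γ Eth replicate 2 (adjusted p of up to 0.151). For NCOA1, MED1 and NCOR1, the log2 difference between the depletions without Dex was 0.08, 0.02 and -0.04, with 95% confidence intervals of -0.10 to 0.26, -0.18 to 0.22 and -0.20 to 0.12.

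Dex itself changed these mRNAs little. At the thresholds of the Dex comparison, which ask for 1.5-fold or more and an adjusted p under 0.01, none of the 9 was called in siNS cells with edgeR or DESeq2, against 2.71% of all genes. At an adjusted p under 0.05 with no fold limit, 1 of the 9 was called, NCOA3, against 9.16% of all genes, and at an unadjusted p under 0.05 it was 6 of the 9. Here and below, the share of all genes at an unadjusted p under 0.05 was not counted, so these counts have no background. NCOA3 rose from 90.4 ± 1.22 CPM in siNS Eth to 129 ± 2.22 CPM in siNS Dex (SD, n = 3), a 1.42-fold increase (log2 fold change 0.51 with SE 0.095, adjusted p = 0.000516). All 3 of its Dex libraries lay above all 3 of its Eth libraries, as the values in the plot of the 18 libraries show. This gene was also the one with the largest fold response to Dex in siNS cells among the 9.

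NCOA2 and EP300 followed, at log2 fold changes of 0.26 and 0.27 that did not pass (adjusted p = 0.0846 and 0.163). NCOA1, CREBBP and NCOR1 had all Dex libraries above all Eth libraries, at log2 fold changes of 0.20, 0.21 and 0.19 with adjusted p-values of 0.143 to 0.193. These results depended on the fit. In edgeR fits of only the libraries compared, NCOA2, EP300, CREBBP and NCOR1 also had an adjusted p under 0.05. NCOA2 passed in edgeR fits with an offset for transcript length or GC content as well (adjusted p = 0.0231 and 0.00947). CALCOCO1, MED1 and NRIP1 had overlapping libraries and log2 fold changes of 0.12, 0.11 and -0.13. The median of the 9 was 0.20, and 8 of the 9 were above 0, as were 50.8% of all genes.

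In siHP1γ cells, Dex changed none of the 9 at the thresholds with edgeR or DESeq2, against 1.67% of all genes. At an adjusted p under 0.05 it was also none, against 5.55%, and at an unadjusted p under 0.05 it was 4 of the 9. Here 7 of the 9 were below 0, with a median log2 fold change of -0.19, whereas 49.6% of all genes were above 0. In the longest 10% of transcripts the median was -0.05, with 6.86% of genes lower and 3.17% higher at an adjusted p under 0.05. With the correction for transcript length, the median of the 9 was -0.15. NCOA3 was at 136 ± 5.23 CPM with Eth and 146 ± 18.6 CPM with Dex (log2 fold change 0.10, adjusted p = 0.629). CREBBP was at 189 ± 12.1 CPM with Eth and 155 ± 5.04 CPM with Dex, with no overlap (log2 fold change -0.28, adjusted p = 0.0803). The other genes with no overlap were NCOR1, CALCOCO1 and NRIP1, at log2 fold changes of -0.17, -0.28 and -0.21.

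In siPRMT5 cells, none of the 9 passed the thresholds for Dex with edgeR or DESeq2, against 5.44% of all genes. NCOA3 was the only one of the 9 with an adjusted p under 0.05, against 16.0% of all genes, and 2 of the 9 had an unadjusted p under 0.05. NCOA3 rose from 155 ± 21.4 CPM to 219.6 ± 21.7 CPM, a 1.41-fold increase with no overlap (log2 fold change 0.50 with SE 0.0919, adjusted p = 0.000236). CALCOCO1 was at 19.0 ± 3.67 CPM with Eth and 14.8 ± 1.95 CPM with Dex, which overlapped (log2 fold change -0.37, adjusted p = 0.0718). The other 7 genes had log2 fold changes between -0.12 and 0.16.

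An interaction term asked whether the Dex response differed between depleted and siNS cells. The terms of both depletions use the same siNS libraries. After HP1γ depletion, none of the 9 passed an adjusted p under 0.05 with edgeR, against 0.399% of all genes. At an unadjusted p under 0.05 it was 7 of the 9, and DESeq2 called 2 of the 9. The 0.399% is no background for the latter counts, and the shares of all genes that would be are not given here. All 9 terms were below 0, whereas 48.4% of all genes had a term above 0. The median of the 9 was -0.36, against -0.01 over all genes and -0.09 in the longest 10% of transcripts. With the correction for transcript length, the median of the 9 was -0.26 and 0 were called. Without that correction, adjusted p-values of the 9 ranged from 0.0932 to 0.847. The terms of EP300, CREBBP, NCOA3 and NCOR1 were -0.56, -0.49, -0.41 and -0.36 (adjusted p = 0.10, 0.0932, 0.130 and 0.114). The NCOA3 response to Dex was therefore called in siNS and not in siHP1γ cells, but the difference between them did not pass. For PRMT5 depletion, none of the 9 passed with edgeR or DESeq2, against 3.80% of all genes, and 5 had an unadjusted p under 0.05. The NCOA3 term was -0.01 (95% confidence interval -0.28 to 0.26), and that of CALCOCO1 was -0.49 (adjusted p = 0.14).

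In order of level, NCOA3 was highest in siPRMT5 Dex, whose libraries lay apart from those of siPRMT5 Eth, and lowest in siNS Eth, apart from siNS Dex. The 4 conditions between, siPRMT5 Eth, siHP1γ Dex, siHP1γ Eth and siNS Dex, overlapped with their neighbours. CALCOCO1 had another order, with siHP1γ Eth above siHP1γ Dex and both apart from siNS Dex, siNS Eth, siPRMT5 Eth and siPRMT5 Dex, which overlapped with their neighbours. For NCOA1, the 4 conditions with depletion overlapped with their neighbours and lay apart from siNS Dex, which lay apart from siNS Eth. CREBBP was split the same way between siNS and depleted cells, and siHP1γ Dex also lay apart from siPRMT5 Eth, the next above it. For NCOA2 and EP300, siNS Eth lay apart from the condition above it, and the others overlapped with their neighbours. For MED1, NCOR1 and NRIP1, each condition overlapped with the next.

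Across the 18 libraries, the Pearson correlations of log2 CPM over all 36 pairs of the 9 genes ranged from -0.47 to 0.92, with a median of 0.67. They include the differences between conditions and between libraries of a condition, which the genes share. The 8 pairs with CALCOCO1 were the lowest as a group, from -0.47 to 0.36, and the 8 pairs with NRIP1 ranged from 0.17 to 0.67. The other 21 pairs, a split made after the values were seen, ranged from 0.48 to 0.92. Among 11410 genes that averaged 5 CPM or more, those whose levels were most like CALCOCO1 over the 18 libraries were CTDSP2 (r = 0.963), TRIOBP, BRPF3, CAPN5 and LRRC8E (r = 0.950 to 0.951). Those most like NCOA3 were TOP1 (r = 0.985), which encodes DNA topoisomerase I, ATP2B4 (r = 0.970), NRP1 (r = 0.962), TRPS1 (r = 0.954) and MRTFB (r = 0.951).

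Of 67 other coregulator genes listed by complex, 64 could be tested. Without Dex, HP1γ depletion came with 11 higher and 12 lower, with 17.2% of the 64 higher, near the 16.5% of all genes tested that were higher and the 15.2% that were lower, at a median log2 fold change of 0.00. PRMT5 depletion without Dex came with 21 higher and 11 lower, with 32.8% of the 64 higher, against 20.6% of all genes higher and 21.6% lower, at a median of 0.09. With Dex, 3 were higher and 13 lower after HP1γ depletion. These were 4.69% of the 64 higher and 25% called, against 11.7% of all genes higher, 12.3% lower and 24.0% called. After PRMT5 depletion with Dex, 19 were higher and 20 lower. These were 29.7% of the 64 higher and 60.9% called, against 20.6% of all genes higher, 21.9% lower and 42.4% called. In siNS cells, Dex changed 1 of the 64 (1.56%) at 1.5-fold or more and an adjusted p under 0.01, against 2.71% of all genes. This was PPARGC1A, which encodes the coactivator PGC-1α. Its mRNA fell from 9.72 to 4.72 CPM (log2 fold change -1.05 with SE 0.182, adjusted p = 0.000202), the opposite direction to NCOA3. The NCOA3 response was below that fold limit. At an adjusted p under 0.05 with no fold limit, 6 of the 64 were higher and 1 lower, against 9.16% of all genes called.

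Among the 29 Mediator genes other than MED1, 7 were higher and 4 lower after HP1γ depletion without Dex, and 8 higher and 6 lower after PRMT5 depletion without Dex. These calls were 37.9% and 48.3% of the 29, near the 31.8% and 42.1% of all genes. With Dex, 2 were higher and 3 lower after HP1γ depletion, or 17.2% called against 24.0% of all genes. After PRMT5 depletion with Dex, 9 were higher and 11 lower, or 69.0% called against 42.4% of all genes. MED12, of the kinase module, rose from 36.0 to 59.5 CPM in siHP1γ Eth (log2 fold change 0.73, adjusted p = 5.66e-05), and CDK19, a kinase of that module, fell from 43.3 to 24.4 CPM (log2 fold change -0.83, adjusted p = 2.65e-06). MED6, a head subunit, fell from 45.3 to 14.8 CPM in siPRMT5 Eth (log2 fold change -1.62 with SE 0.111, adjusted p = 1.27e-11). Over the 29 genes, the median log2 fold change was 0.03 after HP1γ depletion and 0.09 after PRMT5 depletion, both without Dex.

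Of the 14 tested genes of corepressor complexes, 1 was higher and 4 lower after HP1γ depletion without Dex, and 5 were higher and 1 lower after PRMT5 depletion, or 35.7% and 42.9% called against the same 31.8% and 42.1% of all genes. With Dex, 0 were higher and 6 lower after HP1γ depletion, or 42.9% called against 24.0% of all genes. After PRMT5 depletion with Dex, 4 were higher and 4 lower, or 57.1% called against 42.4% of all genes. TBL1XR1, which encodes a subunit of the NCOR1 complex, fell from 85.5 to 57.9 CPM in siHP1γ Eth (log2 fold change -0.56, adjusted p = 0.000163). LCOR, a ligand-dependent corepressor, rose from 114 to 201 CPM in siPRMT5 Eth (log2 fold change 0.82, adjusted p = 9.68e-07) and was lower in siHP1γ Eth (log2 fold change -0.30, adjusted p = 0.0374).

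Of the 4 tested genes of other acetyltransferases and CBP/p300 partners, 1 was higher after HP1γ depletion and 2 were higher after PRMT5 depletion, both without Dex, which is too few genes to set against the share of all genes. KAT2A, which encodes GCN5, was at 40.1 CPM in siNS Eth and 51.9 CPM in siHP1γ Eth (log2 fold change 0.37, adjusted p = 0.00444), and KAT2B, which encodes PCAF, was at 42.8 CPM in siNS Eth and 53.7 CPM in siPRMT5 Eth (log2 fold change 0.33, adjusted p = 0.0165). CITED2, which binds CBP and p300, was higher in siPRMT5 Dex than in siNS Dex (log2 fold change 0.43, adjusted p = 8.69e-06). Of 17 other coactivators, 2 were higher and 4 lower after HP1γ depletion without Dex, and 6 higher and 4 lower after PRMT5 depletion, or 35.3% and 58.8% called against 31.8% and 42.1% of all genes. NCOA4, which despite its symbol is not a p160 gene, fell from 281 to 150.4 CPM in siPRMT5 Eth (log2 fold change -0.90 with SE 0.0662, adjusted p = 4.13e-11), the opposite direction to NCOA1, NCOA2 and NCOA3. FLII, an actin-binding protein that also binds nuclear receptors, fell from 758 to 423 CPM in siPRMT5 Dex against siNS Dex (log2 fold change -0.84, adjusted p = 7.2e-08).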

How the data were processed

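The 18 libraries hold RNA of MDA-MB-231 cells in 6 conditions of 3 replicates, taken from the sample labels. The authors prepared libraries with Lexogen kits, mapped the reads on hg38 with Bowtie2 (version 2.4.2) and deposited, for each library, raw whole-number read counts per gene symbol from HTSeq (version 0.9.1). The annotation and the strand setting are not given in the sources used here. Bowtie2 does not split reads over introns, so reads across exon junctions can be lost. A table of the authors' own comparisons (log2 fold changes, p-values and false discovery rates from DESeq2, given as Galaxy version 2.11.40.7) was not used.

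Genes were kept by edgeR's filterByExpr, scaled by TMM and tested with the quasi-likelihood method on all 18 libraries together (edgeR 4.0.16, R 4.3.3), with 12 residual degrees of freedom and Benjamini-Hochberg adjustment over the 15298 genes tested. Adjusted p-values in the text are from this fit unless another tool is named. Dex responses were called at 1.5-fold or more with an adjusted p under 0.01, and the other comparisons at an adjusted p under 0.05. The scripts were tested on simulated data. The study calls the replicates biological, and the labels do not say what separates them. Same-numbered libraries deviated together with correlations of -0.156 to 0.269 (median 0.012), so the numbers were not taken as pairs.

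The 9 genes, the lists of other coregulators and the tests were chosen with earlier results of these data known. All 9 are named whatever their values. From each list of other coregulators, up to 3 called genes with the largest fold change and a mean of at least 5 CPM are named, with PRMT5, CBX3 and NR3C1 as checks. The values of 1 gene that this rule names are not reported here. Likeness was the Pearson correlation of log2 CPM (prior count 0.5) with the 2 genes of widest range. The alternatives were DESeq2 1.42.0, its size factors, library size only, no filter or at least 10 counts in every library, a replicate block, only the libraries compared, no fold limit for Dex, and each library left out. Offsets for transcript length and GC content were added after the data were seen.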

Additional observations from a re-analysis of the deposited data

Results flagged for a closer look

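For CREBBP and NCOR1, the libraries with Dex lay on opposite sides of those with Eth in siNS and in siHP1γ cells. None of the 4 Dex responses passed the edgeR test on all 18 libraries (adjusted p = 0.193 and 0.0803 for CREBBP, 0.143 and 0.232 for NCOR1, in siNS and siHP1γ cells). With edgeR on only the libraries compared, CREBBP had an adjusted p under 0.05 in both and NCOR1 in siNS cells. In siNS cells, every Dex library was above every Eth library for both genes, and in siHP1γ cells every Dex library was below every Eth library. Both genes were flagged by this separation itself, so it is no support for a difference. The share of all genes that separate in this way was not counted. CREBBP was at 121 CPM with Eth and 140.1 CPM with Dex in siNS cells, and at 189 and 155 CPM in siHP1γ cells. Its difference between the responses, tested as an interaction with edgeR, was -0.49 on the log2 scale and did not pass (adjusted p = 0.0932, and 0.00373 to 0.252 over the alternatives and the fits without 1 library). NCOR1 was at 442 and 504 CPM in siNS cells and at 552 and 489 CPM in siHP1γ cells, with an interaction of -0.36 (adjusted p = 0.114, and 0.0284 to 0.281 over the same fits). For both genes the interaction was below 0 in all of these fits. Both share the siNS Eth, siNS Dex, siHP1γ Eth and siHP1γ Dex libraries with the other 7 genes, so they are not independent observations.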

How the results depend on the processing

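Of the 31 called values of the 9 genes, over 9 alternatives, 276 of 279 kept their call, 3 lost it and 0 reversed; with 1 library left out, which leaves 2 replicates in that condition, 544 of 558 kept it, 14 lost it and 0 reversed. These counts follow called values only, so gained calls are not in them. Without a fold limit, 1 gene was called for Dex in siNS and 1 in siPRMT5 cells. With only the libraries compared, NCOA2, CREBBP, EP300 and NCOR1 were then also called in siNS and CREBBP in siHP1γ cells. Without a filter on low counts, NCOA2 and EP300 were also called in siNS, CREBBP and EP300 in siHP1γ and CALCOCO1 in siPRMT5 cells. The length and GC offsets also called NCOA2 in siNS cells, and the GC offset NRIP1 in siHP1γ cells. For HP1γ depletion with Dex, 1 gene was called, but 5 with library size only, 3 without a filter on low counts, 2 with the replicate block, 2 with only the libraries compared, 2 with the offset for transcript length, 3 with the offset for GC content and 0 to 3 with 1 library left out. It was 0 without siNS Dex replicate 3, siHP1γ Dex replicate 1 or siHP1γ Dex replicate 2, and 3 without siHP1γ Dex replicate 3 or siPRMT5 Dex replicate 2. PRMT5 against HP1γ depletion without Dex gave 3 genes, but 5 with only the libraries compared, which also ended the NCOA2 call with Dex (as did library size only). For the Dex response altered by HP1γ depletion, 0 genes were called, but 2 with DESeq2, 4 without a filter, 1 with only the libraries compared, 1 with the GC offset and 0 to 1 with 1 library left out (1 without siNS Eth replicate 2 or siPRMT5 Dex replicate 1). For PRMT5 depletion it was 0 to 1 (1 without siPRMT5 Eth replicate 1). With 1 library left out, 7 to 8 genes were called for HP1γ depletion without Dex, 4 to 7 and 7 to 8 for PRMT5 depletion with and without Dex, and 3 to 5 and 2 to 4 between the depletions with and without Dex. The causes were not tested. The replicate block changed no other count of the 9 genes by over 1.5 times; 10 of 18 libraries correlated best with their own number, as a hint from the data only.

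Over all genes, dropping the fold limit raised the Dex counts from 414 to 1402 in siNS, 255 to 849 in siHP1γ and 832 to 2449 in siPRMT5 cells. The interaction counts were 61 for HP1γ, with 60 to 374 over the alternatives and 20 to 186 with 1 library left out, and 582 for PRMT5, with 319 to 897. Depth limits CALCOCO1 most, with 133 counts in its lowest library.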
